A study of Mus musculus with 74 samples.

Results

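The windows described here are stretches of 1000 bp centred on BCL6 binding sites of mouse quadriceps muscle (C57BL/6) whose centre lay within 1000 bp of an annotated transcription start site (TSS). They number 1738 of the 10925 windows in the deposited table and carry 1672 gene names. Of the windows 1601 stood at protein-coding genes and 126 at noncoding RNA genes. Of the other windows, 5428 lay in introns, 3255 between genes and 504 in other annotations, all beyond that distance. The binding sites came from a single BCL6 chromatin immunoprecipitation of untreated wild-type muscle, without replicate. Acetylation of histone H3 at lysine 27 (H3K27ac) was measured over the windows in 3 tamoxifen-treated AEC-Esr Cre-positive Bcl6 fl/fl mice, called knockouts, and in 3 tamoxifen-treated Bcl6 fl/fl mice without Cre, called Cre-negative. The floxed allele and tamoxifen were thus shared by both groups, and the Cre was carried by the knockouts alone. Further data sets were set beside the windows. Poly(A) RNA came from 5 knockouts and 4 Cre-negative mice, of which 3 and 3 are the mice of the windows. An acute and a chronic H3K27ac series, marked 1 week and 12 weeks in the file headers, each held 3 knockouts and 3 Cre-negative mice of those same genotypes. RiboTag mice, whose Cre-active cells carry an epitope-tagged ribosomal protein, comprised 4 Cre-positive Bcl6 fl/fl knockouts and 4 Cre-positive controls without a floxed Bcl6 allele in their label, all given tamoxifen. Nascent RNA was sequenced from muscle of wild-type mice, 5 treated with the BCL6 inhibitor FX1 and 5 with DMSO. The labels give no age, do not spell out the abbreviation AEC in the name of the Cre, and do not say whether a library held 1 animal or a pool.

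BCL6 is a zinc finger repressor of the BTB family that recruits corepressor complexes with histone deacetylases. Its DNA recognition sequence resembles the site of the STAT factors, and in liver it is known to act on genes that growth hormone drives through STAT5, among them Socs2, Cish and Igf1. H3K27ac marks active promoters and enhancers, and at a promoter it lies on the nucleosomes that flank the TSS.

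The STAT-like core TTCNNNGAA was searched in the promoters that hold the centre of a promoter peak. RefSeq promoters of GRCm38.p6 (250 bases before to 50 after a start) could be matched for 540 of the 1738 windows, and both strands were searched. Of these 540 promoters 19.1% held the core, against 8.29% of all 32817 promoters in the RefSeq table. The stricter form TTCCTAGAA, which is included in the first motif, was held by 3.15% and 0.411%. In 15 of the 17 promoters with that form it lay within 50 bases of the peak centre, with a median distance of 20 bases. For the core as a whole this was so in 62 of 103 promoters (60.2%, median 37 bases), for GGGCGG in 44.5%, for CCAAT in 34.0% and for CCGGAAG in 33.6% of the promoters that held them. For TGANTCA it was so in 10 of 18 promoters (55.6%), close to the share for the core. TTCCNGGAA, another form of the core, stood at 65.6%, GCATGCGC at 36.6%, TGACGTCA at 35.3% and CACGTG at 29.2%. The ETS-like sequence CCGGAAG was present in 22.04% of the promoters with a peak and in 8.86% of all, and GGGCGG in 62.0% and 35.6%. GCATGCGC was present in 7.59% and 2.71%, TTCCNGGAA in 5.93% and 1.15%, TGACGTCA in 3.15% and 1.79% and CACGTG in 8.89% and 7.15%. By contrast CCAAT was about as frequent in both, at 38.1% and 37.4%. TGANTCA was less frequent in the promoters with a peak, at 3.33% against 7.81% of all. The promoters with a peak were also richer in G and C, with a median of 59.0% against 52.7%, and 68.5% of them had an observed to expected CpG ratio over 0.6, against 35.8% of all. By peak score, the core was held by 13.3%, 20.7%, 20% and 22.2% of the promoters in 4 groups of 135, from low to high score. A match describes letters in this stretch and not a bound site.

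The promoters with the core shown first are given as the part of the 220 bp peak that lies in the RefSeq promoter (mm10, 5′ to 3′ on the strand of the gene, TTCNNNGAA in capitals). Cish (chr9:107296574-107296708, plus strand) and 1810037I17Rik (chr3:122924176-122924396, plus) are among the 10 windows of highest peak score. Cyp2j11 (chr4:96348770-96348930, minus) had the largest change in H3K27ac. Igfals (chr17:24878059-24878279, plus) and Scfd2 (chr5:74531793-74531992, minus) were picked after their values were seen, as raised windows with TTCCTAGAA. The Scfd2 window was not called under quantile normalization (adjusted p = 0.238) or TMM scaling (adjusted p = 0.182), both explained below.
Cish: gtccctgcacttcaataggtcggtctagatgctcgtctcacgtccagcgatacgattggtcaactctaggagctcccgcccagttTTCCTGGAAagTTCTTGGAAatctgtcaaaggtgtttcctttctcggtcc
1810037I17Rik: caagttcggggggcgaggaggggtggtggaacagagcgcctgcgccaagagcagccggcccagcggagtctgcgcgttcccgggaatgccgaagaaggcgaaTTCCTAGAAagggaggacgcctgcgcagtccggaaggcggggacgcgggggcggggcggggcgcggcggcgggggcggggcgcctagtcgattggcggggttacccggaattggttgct
Cyp2j11: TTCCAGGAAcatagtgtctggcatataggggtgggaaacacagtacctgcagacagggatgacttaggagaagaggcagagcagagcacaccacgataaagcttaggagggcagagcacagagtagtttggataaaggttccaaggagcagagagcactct
Igfals: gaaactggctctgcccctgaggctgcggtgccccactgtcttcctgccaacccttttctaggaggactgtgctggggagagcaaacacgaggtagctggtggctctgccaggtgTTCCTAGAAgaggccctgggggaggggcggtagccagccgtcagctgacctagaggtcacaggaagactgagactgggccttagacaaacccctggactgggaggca
Scfd2: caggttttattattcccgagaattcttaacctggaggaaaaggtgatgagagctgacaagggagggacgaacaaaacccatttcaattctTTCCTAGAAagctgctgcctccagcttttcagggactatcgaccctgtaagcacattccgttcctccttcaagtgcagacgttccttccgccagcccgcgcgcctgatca
Cish held 2 copies, TTCCTGGAA and TTCTTGGAA, at 21 and 10 bases from the peak centre. In 1810037I17Rik, Scfd2 and Igfals the copy lay 4, 5 and 8 bases from the centre, and in Cyp2j11 46 bases from it. Promoters without the core in this stretch are shown for contrast. Psmc6 (chr14:45329574-45329764, plus), Snx14 (chr9:88438978-88439179, minus) and Tchp (chr5:114707688-114707828, plus) belong to the 10 peaks of highest score. Stc2 (chr11:31370012-31370203, minus) is among the windows with the largest rise.
Psmc6: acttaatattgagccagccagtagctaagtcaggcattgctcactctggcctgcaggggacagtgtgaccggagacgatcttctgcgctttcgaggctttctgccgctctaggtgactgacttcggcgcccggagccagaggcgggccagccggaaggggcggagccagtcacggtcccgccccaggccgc
Snx14: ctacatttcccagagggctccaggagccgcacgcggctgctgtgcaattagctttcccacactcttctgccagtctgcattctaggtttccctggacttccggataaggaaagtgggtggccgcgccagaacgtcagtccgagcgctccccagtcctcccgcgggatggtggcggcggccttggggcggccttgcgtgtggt
Tchp: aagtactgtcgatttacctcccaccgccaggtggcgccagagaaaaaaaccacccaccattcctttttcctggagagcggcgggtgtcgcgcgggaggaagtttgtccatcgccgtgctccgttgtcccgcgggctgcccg
Stc2: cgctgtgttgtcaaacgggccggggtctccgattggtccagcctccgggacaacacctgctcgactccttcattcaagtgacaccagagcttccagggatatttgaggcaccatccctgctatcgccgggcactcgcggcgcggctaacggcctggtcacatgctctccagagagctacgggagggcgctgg

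Promoter windows were far more acetylated than the other BCL6 windows in every library, while their peak scores were alike. The median H3K27ac signal, in tags per window scaled to 10000000 tags per library, was 122 to 128 in the 3 knockout and 114 to 121 in the 3 Cre-negative libraries at promoters. In intron windows it was 26.0 to 27.7 in knockout and 21.5 to 23.3 in Cre-negative libraries, and between genes 22.4 to 22.9 in knockout and 18.6 to 19.99 in Cre-negative libraries. The peak score, the authors' own and of a scale not named, had a median of 24.5 at promoters, 23.3 in introns and 24.5 between genes. At promoters it ran between 12.3 and 1204.2, and of the promoter peaks 1010 were centred upstream of the TSS and 728 at or downstream of it. Across the 1692 promoter windows with a mean signal of at least 5, score and H3K27ac level were barely related (Spearman 0.065), so a high score did not mark a highly acetylated promoter. Few windows shared a gene: 60 genes had 2 or more windows, and 39 pairs of neighbouring windows overlapped each other and are not independent. Of the 1683 windows on chromosomes covered by the RefSeq table, 15.1% had start sites on both strands within 1000 bp, so the gene named is the nearest and not the sole candidate.

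The H3K27ac libraries of the windows held 15007526 to 22722409 tags, those of the acute series 11772723 to 20773905 and those of the chronic series 7794885 to 23016334. The RiboTag libraries held 6499561 to 13045854 counts in genes. The 6 window libraries were alike over the promoter windows, with correlations of the log2 signal of 0.968 to 0.988 for every pair, so that none stood apart. In poly(A) RNA of the same genotypes the tissue carried the markers of muscle fibres, whose 10 genes had a mean log2 value of 12.62 to 12.72 in knockout and 12.74 to 12.81 in Cre-negative libraries. Of these 10, 6 were lowered, where 4.69% of all genes were raised and 7.16% lowered in poly(A) RNA. Of the 8 fibroblast markers 3 were lowered (mean log2 of 10.22 to 10.33 in knockout and 10.30 to 10.42 in Cre-negative libraries), of the 10 endothelial markers 1 was lowered and of the 5 Schwann cell markers 1 was raised, and of the myeloid, lymphocyte, satellite cell, smooth muscle, adipocyte, tendon and erythroid markers 0 passed the test. These markers carried a promoter BCL6 window in 4 cases for muscle fibres (Casq1, Ckm, Myh4 and Mylpf), in 1 for myeloid cells (Cd14) and in 1 for tendon (Scx), and in 0 for the other types. The part of other cells in the results below was not tested, and in whole muscle fewer cells of a type and less RNA or acetylation per cell cannot be told apart.

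H3K27ac rose in knockout muscle at 138 of the 1692 promoter windows tested and fell at 6 (limma on log2 of the signal plus 1, Benjamini-Hochberg adjusted p below 0.05 over all 9080 windows tested, here "called"). The other 46 had a mean signal under 5 and were not tested. Among all windows 16.7% were raised and 1.44% lowered, so the share raised at promoters (8.16%) lay below the background and below that in introns (18.3%) and between genes (19.1%). In 380 promoter windows every knockout library stood above every Cre-negative library and in 65 below, against 28.4% and 5.91% of all windows. The median log2 change was 0.087 at promoters and 0.137 over all windows. This direction rests on the scaling to the library total. With quantile normalization the median of all windows lay 0.066 below 0 and that of promoter windows 0.106 below 0, and 52 promoter windows were raised and 63 lowered, while edgeR with TMM scaling on recovered whole tags called 57 and 48. Over all windows, raised calls stayed in excess under both, with 870 raised and 522 lowered of 9080 under quantile normalization and 1017 raised and 387 lowered with TMM. Relative to the median of all windows, promoter windows thus stood 0.040 to 0.056 lower on the log2 scale under each of the 3 scalings. Under all 3 of them 51 promoter windows were raised, and it is these that do not depend on the choice. The count raised was 67 without the second knockout, 72 without the third knockout and 85 without the third Cre-negative mouse, in the order of libraries used below. These were 3.96%, 4.26% and 5.02%, against 10.6%, 10.8% and 12.7% of all windows raised in the same fits.

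The largest rise was at Cyp2j11, a cytochrome P450 gene whose promoter was close to unacetylated in controls. Its window held 96.19, 82.74 and 67.01 in the 3 knockouts, against 6.00, 2.72 and 0.48 in the 3 Cre-negative mice, an order of libraries kept below. The lowest of these rests on 1 tag. The log2 change was 4.603 (SE 0.42, adjusted p = 4.70e-06), with a peak score of only 18.4. Chrna1, the muscle subunit alpha of the acetylcholine receptor, held 79.67, 87.14 and 51.01 in knockouts and 18.66, 17.65 and 19.08 in Cre-negative mice (log2 change 1.88, SE 0.21, adjusted p = 3.12e-05). Its peak lies in an intron 976 bp from the TSS. St5, a regulator of small GTPases and MAP kinase signalling, held 94.42, 82.74 and 88.52 in knockouts against 23.32, 23.99 and 23.37 in Cre-negative mice (log2 change 1.86, SE 0.16, adjusted p = 2.55e-06).

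Tnc encodes the matrix protein tenascin C, and its window is both among the highest scores and the largest changes. It held 27.74, 30.81 and 33.51 in knockouts against 7.33, 7.69 and 8.58 in Cre-negative mice (log2 change 1.84, SE 0.23, adjusted p = 7.68e-05). Stc2, the secreted glycoprotein stanniocalcin 2, held 132.19, 142.59 and 126.53 in knockouts and 41.98, 59.29 and 42.45 in Cre-negative mice (1.48, SE 0.16, adjusted p = 2.03e-05), at a modest score of 22.1. Lower levels were seen at Lincmd1, a long noncoding RNA of muscle differentiation (30.69, 14.96 and 14 in knockouts against 4, 7.24 and 5.25 in Cre-negative mice, log2 change 1.63), and at Ttpa, the vitamin E transfer protein (24.79, 20.68 and 28.51 in knockouts against 9.33, 10.41 and 7.63 in Cre-negative mice, 1.34). The unnamed transcript 9430083A17Rik completes the 8 (47.80, 66.01 and 56.01 in knockouts against 16.66, 22.63 and 27.66 in Cre-negative mice, 1.32). In none of these 8 windows did the groups overlap, and all 8 stayed raised under the quantile and TMM scalings.

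**Figure D1:**
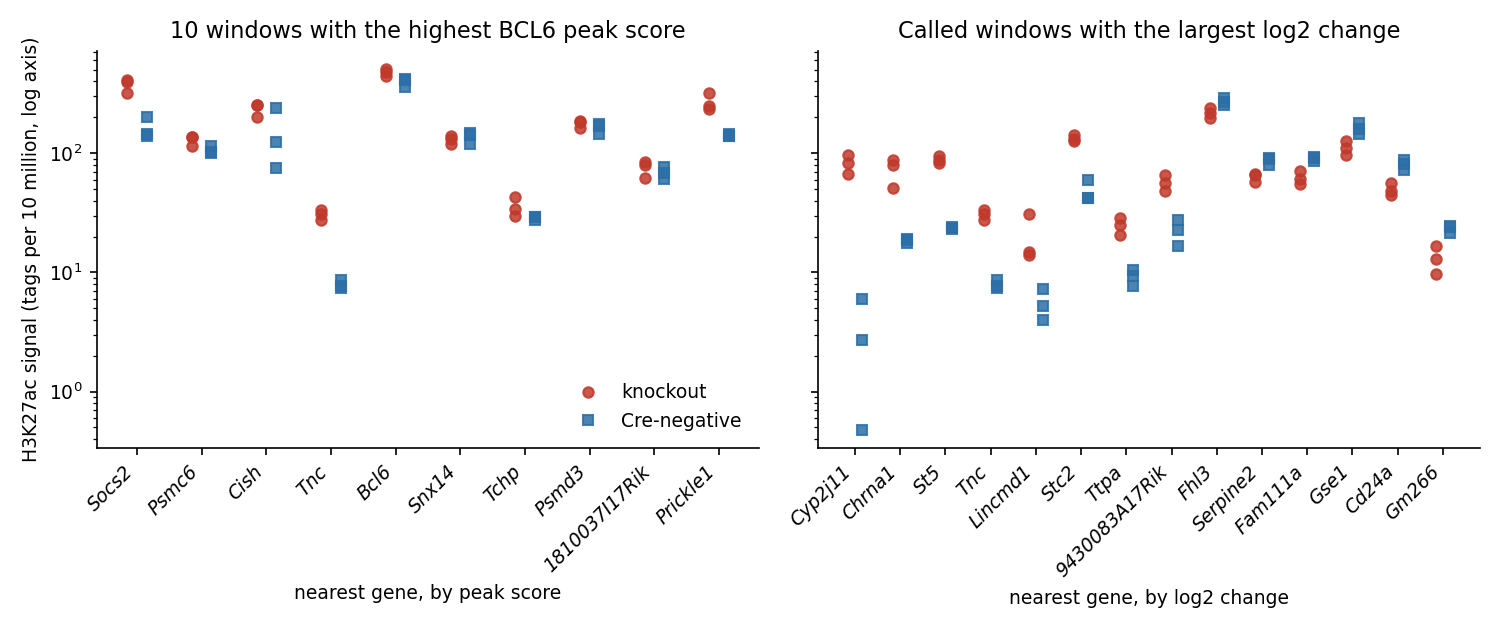
H3K27ac signal (tags per window per 10000000 tags, log axis) in each of the 3 knockout (circles) and 3 Cre-negative libraries (squares), for the 10 promoter windows of highest BCL6 peak score (left) and the called windows of largest log2 change (right). Socs2, Tnc and Prickle1 are separated on the left while Psmc6, Snx14 and Psmd3 overlap, and on the right Cyp2j11 stands between 67.01 and 96.19 in knockouts and at or below 6.00 in Cre-negative mice.

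The 6 lowered windows changed less. Gm266 held 12.98, 9.68 and 16.50 in knockouts against 23.99, 21.27 and 24.32 in Cre-negative mice (log2 change -0.81, SE 0.25, adjusted p = 0.0335). Cd24a, a glycoprotein of the cell surface, held 48.39, 55.89 and 45.01 in knockouts against 81.29, 87.35 and 72.49 in Cre-negative mice (-0.68, SE 0.15, adjusted p = 0.00661), and Gse1, a coiled-coil protein, 96.78, 125.43 and 111.52 in knockouts against 158.59, 179.23 and 144.03 in Cre-negative mice (-0.53, adjusted p = 0.0117). Fam111a (-0.52), the protease inhibitor Serpine2 (-0.45) and the LIM protein Fhl3 (-0.32) followed. The groups did not overlap in any of the 6. All had peak scores between 17.2 and 28.2, in the range of the median. All 6 were also lowered under the quantile and TMM scalings. Cd24a stayed called without any 1 library, Gse1 was lost without the second Cre-negative mouse, and each of the other 4 was lost in several such fits.

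Of the 10 promoter windows with the highest peak score, 5 rose. Socs2, the feedback inhibitor of growth hormone signalling, had the highest score (1204.2, chr10:95416796-95417016, 49 bp upstream of the TSS). Its window held 321.62, 392.12 and 410.09 in knockouts against 199.90, 144.83 and 139.74 in Cre-negative mice (log2 change 1.22, SE 0.14, adjusted p = 2.70e-05). Prickle1, of the planar cell polarity pathway, held 235.46, 321.27 and 248.55 in knockouts against 144.59, 139.85 and 139.74 in Cre-negative mice (0.91, SE 0.12, adjusted p = 0.000113). Together with Tnc these windows stayed raised under the quantile and TMM scalings.

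Cish, the other STAT5-induced feedback inhibitor at the top of the list (score 715.4), held 202.41, 256.13 and 252.05 in knockouts and 237.88, 123.11 and 75.83 in Cre-negative mice, so the first Cre-negative mouse fell inside the knockout range. It was called at the edge (log2 change 0.85, SE 0.28, adjusted p = 0.0469) and was not called under the quantile (adjusted p = 0.0831) or TMM scaling (adjusted p = 0.0981). Bcl6 itself had its peak in the annotated 5' UTR (score 592.9) and held 442.00, 481.02 and 510.61 in knockouts against 419.79, 409.60 and 357.70 in Cre-negative mice (0.27, SE 0.085, adjusted p = 0.0379). It too was not called under the quantile (adjusted p = 0.401) or TMM scaling (adjusted p = 0.307). Leaving out the second or the third knockout, or the second or the third Cre-negative mouse, ended either call.

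The remaining 5 of the 10 did not pass the test at comparable scores. Psmc6, an ATPase subunit of the proteasome cap (score 801.2), held 115.07, 135.55 and 136.03 in knockouts and 100.62, 115.86 and 102.54 in Cre-negative mice (log2 change 0.27, adjusted p = 0.153). Snx14, a sorting nexin (561.1), stood at -0.06 (adjusted p = 0.785), and Psmd3, another subunit of the proteasome cap (487.6), at 0.12 (adjusted p = 0.536). Tchp, a keratin-binding protein of the centrosome (531.7), stood at 0.28 (adjusted p = 0.377) and 1810037I17Rik (455.7) at 0.14 (adjusted p = 0.603).

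The share of raised promoter windows nevertheless increased with the score. In 5 score bands of like size, 9 of 333 tested windows were raised in the lowest band (12.3 to 17.2), then 18 of 336, 22 of 338 and 29 of 340, and in the highest band (50.2 to 1204.2) 60 of 345. Under quantile normalization the counts raised were 4, 6, 4, 8 and 30 and those lowered 20, 14, 15, 8 and 6, and TMM gave 3, 7, 5, 11 and 31 raised and 14, 10, 11, 8 and 5 lowered. The highest band thus had more raised than lowered windows under each scaling, whereas the lowest band did so under the authors' scaling alone. Across the 1692 windows the score and the log2 change had a Spearman correlation of 0.18, given as a description since windows of a library share its scaling. Raised windows were also more frequent where the signal was high: 57 of 433 windows with a mean signal of at least 200, against 14 of 276 under 50. The gap was smaller under the other scalings, at 21 and 8 windows raised under quantile normalization and 20 and 10 with TMM. Under the authors' scaling the share raised differed little by position, with 7.59% within 100 bp, 8.27% from there to 500 bp and 8.41% from there to 1000 bp. The other scalings differed by position. Within 100 bp, 12 of 369 windows were raised and 7 lowered under quantile normalization, and 11 and 5 with TMM. Beyond 500 bp these counts were 13 and 27 of 440, and 15 and 21, and this was not tested. Under the authors' scaling 18 of 120 windows at noncoding RNA genes were raised, and 120 of 1562 at protein-coding genes. The difference was not tested.

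**Figure D2:**
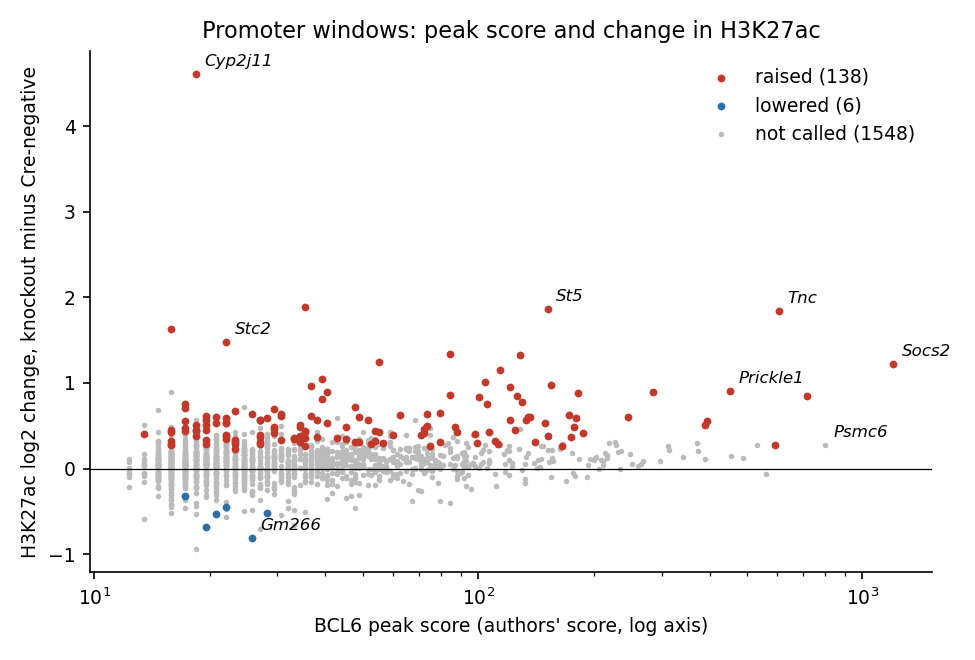
BCL6 peak score (log axis) against the H3K27ac log2 change, knockout minus Cre-negative, of the 1692 promoter windows tested. The 138 raised windows lie at all scores up to Socs2 at 1204.2, the 6 lowered windows lie between 17.2 and 28.2, and Cyp2j11 stands alone at 4.603.

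**Figure D3:**
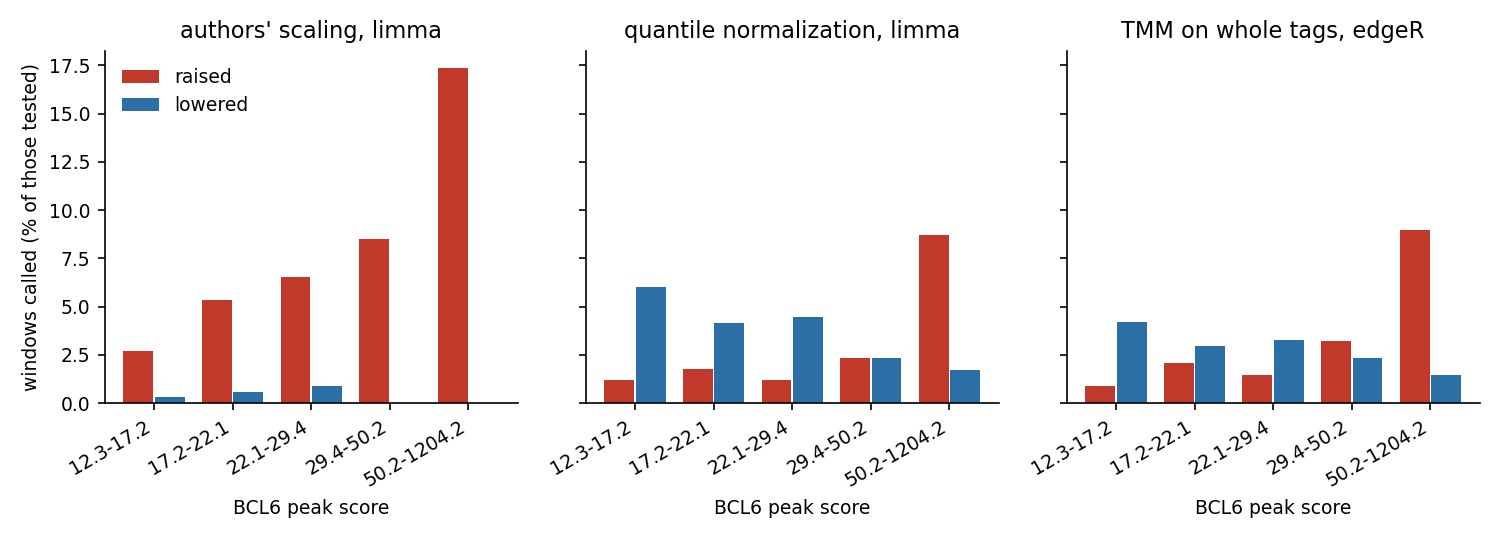
Share of tested promoter windows called raised or lowered (percent) in 5 bands by BCL6 peak score, from low to high, under the authors' scaling, quantile normalization and TMM on whole tags. In the highest band 60, 30 and 31 of 345 windows were raised, and in the lowest band 9, 4 and 3 of 333.

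Grouped by function, the cytokine pathway held the most raised windows. Of its 24 genes 7 had a promoter window, and Socs2, Cish, the interleukin 6 receptor gene Il6ra and Stat5b were raised, against 16.7% of all windows. Il6ra held 156.97, 219.61 and 181.54 in knockouts against 128.60, 114.05 and 130.68 in Cre-negative mice (log2 change 0.57, SE 0.13, adjusted p = 0.00771). Stat5b, the transcription factor that acts on the first 2, rose by 0.29 (adjusted p = 0.0465). Of these 4, Socs2 and Il6ra were called under quantile normalization too, where Socs1 and Socs3 were lowered. Socs3 had a log2 change of -0.24 (adjusted p = 0.151) under the authors' scaling, and Socs6 of 0.14 (adjusted p = 0.578).

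Growth control genes showed calls at Ddit4l and Fbxo32, to be read against 16.7% of all windows and 8.16% of promoter windows raised. Of the 8 genes of the IGF, insulin, AKT and mTORC1 list with a promoter window (Akt2, Ddit4, Ddit4l, Igf1, Pdpk1, Rptor, Sesn1 and Sesn2, of 36 genes) 1 window of 9 was raised, at the mTORC1 inhibitor Ddit4l (0.38, adjusted p = 0.0357, not called under quantile normalization). Igf1, the growth factor gene, held 23.01, 27.29 and 20.50 in knockouts and 46.64, 33.04 and 24.80 in Cre-negative mice, an overlap that left it uncalled (-0.51, SE 0.24, adjusted p = 0.164), though quantile normalization lowered it (-0.72, adjusted p = 0.0376). Fbxo32, the muscle ubiquitin ligase atrogin-1, had 2 overlapping windows and both rose. The nearer held 364.10, 374.08 and 385.58 in knockouts against 277.86, 235.80 and 267.08 in Cre-negative mice (0.53, SE 0.088, adjusted p = 0.000772). Both were called under quantile normalization and TMM as well. Of the other atrophy and myostatin pathway genes with a window (Acvr2a, Foxo6, Gdf11, Mt1 and Tgfbr2) 0 passed the test. Foxo6 held 37.18, 42.25 and 39.51 in knockouts against 47.98, 52.50 and 66.29 in Cre-negative mice (-0.47, adjusted p = 0.0792), and was lowered under quantile normalization (-0.69, adjusted p = 0.0175) and TMM scaling (-0.66, adjusted p = 0.0211). Eif4ebp1, Akt1, Trim63, Mstn, Fos and Per1 had no promoter window. Ddit4 (0.31, adjusted p = 0.184), Sesn1 (0.27, adjusted p = 0.203), Egr1 (-0.00, adjusted p = 0.988) and the clock repressor Nr1d1 (0.23, adjusted p = 0.0667) were not called.

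Promoter windows at genes of 3 housekeeping lists were not called under the authors' scaling, and 1 ribosomal protein window was lowered under quantile normalization. Of 8 windows at proteasome genes, 9 at cytosolic ribosomal protein genes and 10 at oxidative phosphorylation genes 0 were raised and 0 lowered, with median log2 changes of 0.063, 0.073 and 0.015 against 0.137 over all windows. At the translation factor genes 1 of 8 windows was raised (Eef2k, the kinase of elongation factor 2, at 0.33, not called under quantile normalization). Of 6 circadian clock genes and 4 immediate early genes with a window 0 were called. The counts raised in this and the next lists are to be read against 16.7% of all windows and 8.16% of promoter windows raised. Of 14 windows at sarcomere and calcium handling genes 1 was raised, at the calcium-binding protein Casq2 (0.57, SE 0.17, adjusted p = 0.0292), which was not called under quantile normalization (adjusted p = 0.195). In the lipid metabolism list 2 of 8 were raised, the nuclear receptor gene Esrrb (0.95, SE 0.19, adjusted p = 0.00349) and the fatty acid carrier gene Fabp3 (0.44). Esrrb kept its call under quantile normalization. Of 7 genes known as BCL6 targets in lymphocytes 1 was raised, the NF-kB inhibitor gene Nfkbia (0.42, SE 0.098, adjusted p = 0.00827). Of 9 stress response genes 1 was raised, Stc2, and of the neuromuscular list Chrna1 was raised out of 3.

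In the separate animals of the acute and chronic series, 1200 of the 1738 promoter windows (69.0%) overlapped a measured acetylated region by at least 1 bp, and 1226 regions did so in all. Of these 4 of 1226 were raised in the acute series and 6 of 1225 tested in the chronic series, and 0 were lowered in either. Among all regions 0.0937% were raised and 0.0042% lowered in the acute, and 0.166% and 0.0118% in the chronic series. With a mean signal of at least 20 the shares lay closer, at 0.256% of overlapping regions raised in the acute series, against 0.182% of all. In the chronic series they were 0.43% and 0.32%. At an unadjusted p below 0.05 there were 84 overlapping regions in the acute and 66 in the chronic series (6.85% and 5.39%), against 7.83% and 6.85% of all regions. Cyp2j11 rose in both series. It held 24.31, 27.43 and 17.81 in acute knockouts against 0.85, 1.74 and 1.44 in Cre-negative mice (log2 change 3.37, SE 0.50, adjusted p = 0.00102), and 26.73, 15.44 and 16.44 in chronic knockouts against 1.49, 0.00 and 1.30 in Cre-negative mice (3.48, SE 0.67, adjusted p = 0.0402). The transcript 1700012I11Rik and the lipid synthesis enzyme gene Gpat3 also rose in both, 1700012I11Rik by 1.85 in the acute and 1.98 in the chronic series and Gpat3 by 0.78 in the acute and 0.86 in the chronic series.

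Stc2 was called in the chronic series, with 109.64, 106.45 and 87.91 in knockouts against 32.10, 6.41 and 16.94 in Cre-negative mice (log2 change 2.64, SE 0.38, adjusted p = 0.00459). In the acute series it stood at 0.86 (adjusted p = 0.139), and the difference between the series was not tested. Igfals, the subunit that keeps IGF in the circulation, rose by 1.08 and the matrix protein gene Aebp1 by 1.15 in the chronic series. The windows of these 6 genes were all raised in the mice with RNA sequencing as well. Of the 85 regions at raised promoter windows 72 had a positive change in the acute and 73 in the chronic series, against 654 of 1172 and 732 of 1171 at all promoter windows. These calls are fragile: leaving out 1 library left 1 to 3 raised regions in the acute series (1 without the first or the third knockout or the third Cre-negative mouse), and leaving out any of the 3 chronic knockouts left 0. Without the second chronic Cre-negative mouse there were 10 (0.816%, against 0.492% of all regions). Socs2, Cish, Bcl6 and Tnc have no overlapping region in these tables.

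**Figure D4:**
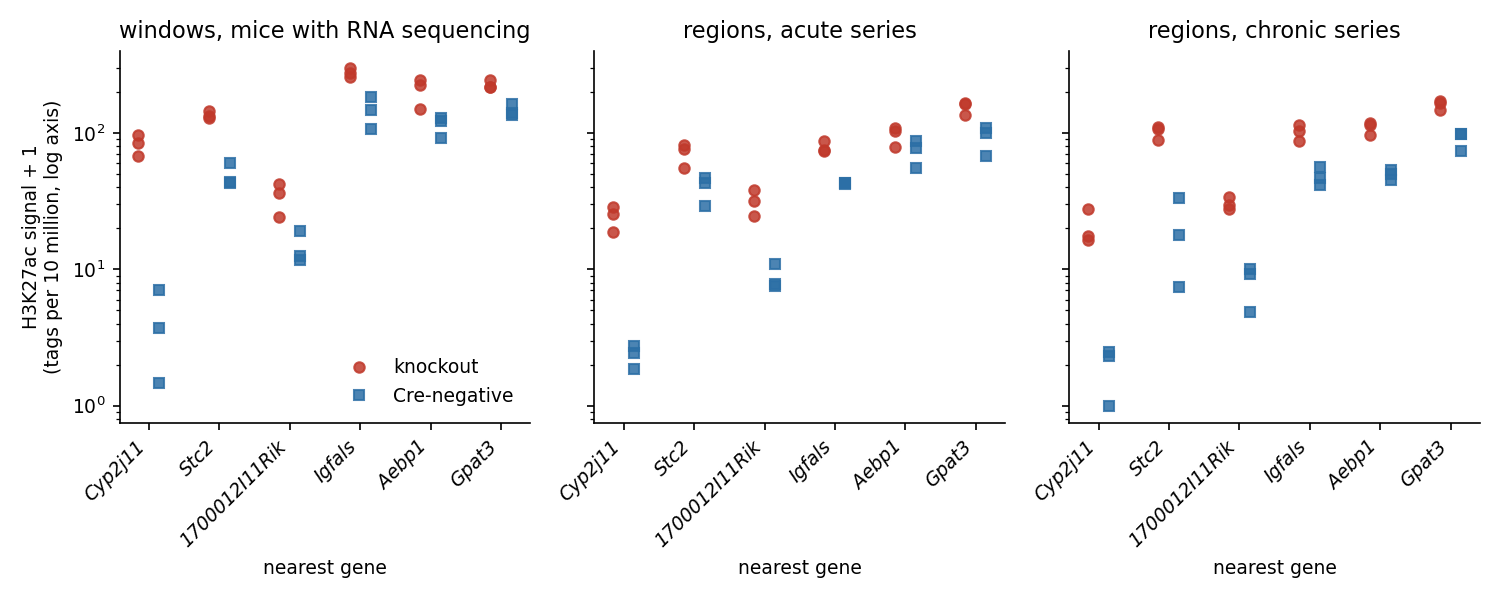
H3K27ac signal plus 1 (tags per 10000000, log axis) per library at the 6 genes whose overlapping region was called in the chronic series, in 3 knockouts (circles) and 3 Cre-negative mice (squares) of each series. Each knockout library stands above each Cre-negative one for Cyp2j11, with 24.31, 27.43 and 17.81 against at most 1.74 in the acute series.

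In poly(A) RNA, changes were more frequent at genes with a promoter window than among all genes, in both directions. Of 1614 such genes tested 156 were raised and 190 lowered (9.67% and 11.8%), against 4.69% and 7.16% of all 17112 genes (limma on the authors' log2 values, which the authors had transformed). Under quantile normalization 173 of these genes were raised and 124 lowered (10.7% and 7.69%), against 860 raised and 938 lowered of all genes (5.03% and 5.48%). A call need not mean a large change on this scale. The quartiles of the log2 change over the 1614 genes were -0.041 and 0.042. Cyp2j11 counted as raised with a mean of 0.263 in knockouts and 0.251 in Cre-negative mice (log2 change 0.012, adjusted p = 0.0271). Usp46, a deubiquitinase gene, held 9.79 ± 0.07 in knockouts and 8.89 ± 0.06 in Cre-negative mice (SD, n = 5 and 4, log2 values, adjusted p = 4.45e-09). Its window, in libraries from 3 of the same mice per group, held 208 ± 25 against 117 ± 11 in Cre-negative mice (SD, n = 3 each, log2 change 0.82, adjusted p = 0.000324). Chrna1 rose by 0.63, Esrrb by 0.63 and Stc2 by 0.50 in RNA, with windows raised by 1.88, 0.95 and 1.48. Gm20597 (0.65 in RNA and 0.53 in the window) and the TNF receptor family gene Eda2r (0.45 in RNA, 0.48 and 0.45 in 2 windows) were raised in both. Stum rose by 0.50 in RNA, but its window held under 4 tags on average in both groups and was not tested.

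Esr1, the estrogen receptor gene, had the largest RNA rise, at 11.07 ± 0.05 in knockouts against 9.73 ± 0.12 in Cre-negative mice (SD, n = 5 and 4, log2 change 1.34, adjusted p = 5.56e-10). Its window was not called (0.27, adjusted p = 0.179). The Cre of the knockouts is labelled as an Esr fusion and the Cre-negative mice lack it. In RiboTag mRNA, where both groups carry the Cre, Esr1 held 555.7 CPM (counts scaled to library size) in knockouts and 560.8 CPM in controls. Whether transgene reads counted to Esr1 was not tested.

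The windows and poly(A) RNA share 3 mice per group, so the values are set side by side. Several of the largest RNA falls came without a called window. Igf1 fell by 0.98 (8.96 ± 0.09 in knockouts, 9.94 ± 0.18 in Cre-negative mice, adjusted p = 4.63e-07). The myosin phosphatase subunit gene Ppp1r12b fell by 0.84, whereas its window stood at 0.28 (adjusted p = 0.0593). The calcineurin inhibitor gene Rcan1 (-0.60), Gbp7 (-0.58), Itgb6 (-0.46) and 2610507B11Rik (-0.42) were lowered with windows that were not called, though quantile normalization lowered the Gbp7 window (adjusted p = 0.0304). Fhl3 was lowered in both, by 0.43 in RNA and by 0.32 in the window. Among the genes of highest score with a raised window, Cish fell by 0.42 in RNA (adjusted p = 0.00507). Tnc fell by 0.21 (adjusted p = 0.0154) and Bcl6 itself by 0.23 (adjusted p = 0.0129). The windows of Cish, Tnc and Bcl6 rose by 0.85, 1.84 and 0.27. Socs2 rose in RNA by 0.36 (adjusted p = 0.00337) and Prickle1 by 0.23 (adjusted p = 5.67e-05).

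RiboTag mRNA came from separate animals, with Cre in both groups. Of 1546 genes with a promoter window 67 were raised and 37 lowered (edgeR, 4.33% and 2.39%), against 1.95% and 2.25% of all 14476 genes. Of the 126 genes whose window was raised in the other mice, 41 were raised and 1 lowered here. Of the 44 genes with a window raised under all 3 scalings 25 were raised and 0 lowered. Of the 6 genes with a lowered window, 3 were lowered (Fhl3, Cd24a and Gse1) and 0 raised. By score, 31 of the 327 genes in the highest band were raised and 4 lowered, against 8 and 10 of 318 in the lowest band.

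Stc2 rose most, to 41.7, 69.7, 37.8 and 67.4 CPM in RiboTag knockouts, against 7.42, 7.91, 7.57 and 8.02 CPM in controls (log2 change 2.81, SE 0.21, adjusted p = 1.67e-05). Usp46 stood at 140, 140, 107 and 134 CPM in knockouts, against 29.2, 28.4, 24.8 and 28.4 CPM in controls (2.23, SE 0.11, adjusted p = 6.33e-07). Neither gene's groups overlapped. Stum (2.76) and Egr3, an immediate early transcription factor (2.20), completed the 4 largest rises among genes averaging 5 CPM or more, and the Egr3 window was not called and lay lower in knockouts (-0.71, adjusted p = 0.192). Socs2 held 95.1 ± 8.1 CPM in knockouts against 29.1 ± 11.1 in controls (SD, n = 4 each, adjusted p = 0.000809), Cyp2j11 4.03 ± 0.26 against 1.12 ± 0.33 (adjusted p = 0.00343), and Igfals 50.8 ± 7.7 against 15.3 ± 3.8 (adjusted p = 0.000192). Tnc, lowered in the poly(A) RNA above, was raised here (127 ± 18 CPM in knockouts against 77.7 ± 6.2 in controls, adjusted p = 0.00339). Sesn1, whose window was not called, held 163 ± 7 CPM in knockouts against 69.2 ± 5.2 in controls (adjusted p = 9.49e-06). In poly(A) RNA Sesn1 rose by 0.25 (adjusted p = 0.00110).

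On the lowered side Fhl3 held 58.7, 120.8, 75.8 and 65.9 CPM in RiboTag knockouts, against 230.2, 207.6, 217.0 and 279.8 CPM in controls (log2 change -1.54, SE 0.20, adjusted p = 0.000961). Cd24a (-0.97) and Gse1 (-0.77) were lowered here too, and by 0.41 and 0.32 in poly(A) RNA. Igf1, whose window was not called, held 39.8 ± 6.7 CPM in knockouts against 62.3 ± 6.6 in controls (SD, n = 4 each, adjusted p = 0.0104). C130080G10Rik (-2.51), the methyltransferase gene Mettl21e (-1.88) and Lrrc30 (-1.65) fell with windows that were not called, though quantile normalization lowered the Lrrc30 window (adjusted p = 0.0256). The count lowered was 22 without the second control, 24 without the fourth control and 23 without the first knockout. These were 1.42%, 1.55% and 1.49%, near the 1.43%, 1.54% and 1.46% of all genes lowered in the same fits. Cish, at 61.5 ± 13.2 CPM in knockouts and 71.0 ± 66.5 in controls (SD, n = 4 each), varied so widely among controls that no difference was detectable (adjusted p = 0.896). Bcl6 was not called here, at 229 ± 40 CPM in knockouts and 209 ± 96 in controls (SD, n = 4 each, adjusted p = 0.840).

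Inhibition of BCL6 with FX1 gave another picture. In nascent RNA of wild-type muscle 144 of 1660 genes with a promoter window were raised and 180 lowered (8.67% and 10.8%), against 6.42% and 6.4% of all 21715 genes. Among genes with a mean log2 value of at least 5, a filter chosen after seeing the data, 12.1% of the genes with a promoter window were raised and 14.4% lowered, against 12.4% and 11.2% of all genes, so the share raised was then near the background. Of the 132 genes whose window was raised in knockouts, 12 were raised by FX1 and 22 lowered. Ddit4, the hypoxia- and stress-induced inhibitor of mTORC1, rose by 2.38 (11.53 ± 0.58 with FX1, 9.15 ± 0.53 with DMSO, SD of log2 values, n = 5 each, adjusted p = 0.000685), with no called change of its window in knockouts. Angiotensinogen (Agt, 2.56), the matrix protease gene Adamts9 (2.38) and Cklf (2.15) were the other 3 largest rises. Falls were led by the receptor gene Crhr2 (-2.66) and the AMP deaminase gene Ampd1 (-2.40). Cish fell by 2.03 (5.63 ± 0.39 with FX1, 7.66 ± 0.65 with DMSO, adjusted p = 0.00145), with 5.06 to 5.99 in the 5 FX1 libraries and 6.60 to 8.33 in the 5 DMSO libraries. Igf1 fell by 1.24 (adjusted p = 0.00879). Dhrs7c, a reductase of the sarcoplasmic reticulum, fell by 2.02. Il6ra (1.62, adjusted p = 0.000256), Nfkbia (1.42, adjusted p = 0.000260), Prickle1 (1.02, adjusted p = 0.0163) and Stc2 (0.95, adjusted p = 0.000646) were raised by FX1 and had raised windows in knockouts. Casq2 and Chrna1, also with raised windows, fell by 1.36 (adjusted p = 0.000266) and by 0.55 (adjusted p = 0.0145). In knockouts both were raised instead. Casq2 rose by 0.42 in poly(A) RNA (adjusted p = 4.52e-06) and by 1.44 in RiboTag mRNA (adjusted p = 2.70e-05). Chrna1 rose by 0.63 and 0.67 there (adjusted p = 3.51e-06 and 0.00288). With FX1, Socs2 stood at 0.65 (adjusted p = 0.163). Its FX1 libraries held 7.05, 7.35, 5.69, 7.26 and 7.34, against 6.06 to 6.43 with DMSO, so the third FX1 library alone lay below the DMSO range. Without that library 205 genes with a promoter window were raised and 266 lowered (12.3% and 16%), against 9.87% and 9.06% of all genes. Usp46 stood at 0.08 (adjusted p = 0.766) and Tnc at 0.19 (adjusted p = 0.642), and the difference between gene deletion and inhibitor was not tested.

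At the edge of the distance rule, the windows just inside were those at Nxn (distance 1000 bp, score 14.7, log2 change 0.07) and Lmod1 (distance -998 bp, score 29.4, log2 change 0.03). Just outside lay windows at Nr4a2 (distance -1002 bp, score 20.8, log2 change 0.22) and Dcaf6 (distance 1004 bp, score 66.2, log2 change 0.25).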

How the data were processed

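H3K27ac ChIP, BCL6 ChIP, poly(A) RNA, RiboTag mRNA and nascent RNA were measured in mouse quadriceps. The submitters' processing notes name Bowtie 1.2, STAR 2.4.0, HOMER, DESeq2 1.14.1 and the build mm10, with no role for each. Per the file headers, the deposited H3K27ac signal is tags per window or region scaled to 10000000 tags per library. Tags were recovered from it by undoing the scaling and rounding to whole numbers. Of the nonzero values of at most 100 tags, 100% lay within 0.1 of a whole number, and larger values were not checked. The peak score is the authors' deposited score of the 1 BCL6 library, with a scale not given in the sources used here. Poly(A) and nascent RNA are log2 values as deposited by the authors, with a transform not named, and its effect on low genes was not tested. RiboTag values are the authors' deposited counts per gene, without normalization.

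Signals were tested with limma 3.58.1 (R 4.3.3) as log2(signal + 1) over features with a mean signal of at least 5, so changes of low windows are understated. The log2 RNA tables were tested with limma over genes more than 1 above the lowest value. RiboTag counts were tested with the quasi-likelihood test of edgeR 4.0.16 with TMM and filterByExpr (minimum count 10). P-values were adjusted by Benjamini-Hochberg over each whole table at 0.05, and groups alone were the terms. The p-values measure the spread between libraries, and the labels do not say whether each held 1 animal or a pool. The main fit to each table was run on simulated data, and the alternative fits were not.

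Named were the 10 windows of highest score, up to 8 raised and 8 lowered windows of largest change without overlap, fixed genes and list members of high score, up to 8 genes per direction in poly(A) RNA and up to 4 in RiboTag (mean of at least 5 CPM) and nascent RNA, and the windows at the distance limit. The members and lists were chosen with earlier results of these data known. Other genes named from the chronic calls, the scalings or the mRNA of lowered windows were chosen after their values were seen. The remaining raised acute region is not reported here by gene. Alternatives were other pseudocounts (0.5 and 5), filters, quantile normalization, edgeR with TMM on whole tags, DESeq2 1.42.0, a distance of 500 bp, another overlap rule, the replicate block and each library left out. Python 3.11.15, pandas 2.3.3 and matplotlib 3.10.9 joined and drew the data.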

Additional observations from a re-analysis of the deposited data

Results flagged for a closer look

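Esr1 in poly(A) RNA had 1 of its 4 Cre-negative libraries at 9.55 (log2 value), with the other libraries of the group between 9.77 and 9.81, and the gap was 0.846 of the range of the group. All 5 knockout libraries lay between 11.01 and 11.12. Adamts9 in nascent RNA had 1 of its 5 DMSO libraries at 9.96, apart from the others by 0.736 of the range. Chance flags about 1 in 20 groups, and 2 of the 64 groups checked stood out.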

How the results depend on the processing

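Promoter windows raised, lowered and the median log2 change were 57, 48 and -0.075 with edgeR and TMM on whole tags and 52, 63 and -0.106 with quantile normalization, against 138, 6 and 0.087 with the authors' scaling. Windows within 500 bp of a TSS left 2 lowered (0.16%, against 1.44% of all windows). With the centre inside the region 2 acute regions were raised (0.327%, against 0.0937% of all). In the chronic series 12 were raised with either TMM or quantile normalization (0.98%, against 0.474% and 0.378% of all). Quantile normalization gave 124 lowered genes in poly(A) RNA (7.69%, against 5.48% of all). DESeq2 gave 63 lowered in RiboTag mRNA (4.08%, near the 3.95% of all genes). Genes with a window within 500 bp left 119 lowered in nascent RNA (9.53%, against 6.4% of all). Leaving out 1 library gave 67 to 131 raised and 1 to 5 lowered windows, 1 to 3 raised acute regions, 0 to 10 raised chronic regions, and 45 to 71 raised and 22 to 50 lowered RiboTag genes. The ranges were 115 to 123 raised and 153 to 188 lowered in poly(A) RNA, and 100 to 205 raised and 126 to 266 lowered in nascent RNA. Over all features these fits raised 10.6% to 17% and lowered 0.65% to 1.63% of windows. They raised 0.0112% to 0.112% of acute and 0% to 0.492% of chronic regions. For all genes the shares were 1.2% to 2.35% raised and 1.43% to 3.31% lowered in RiboTag mRNA. In poly(A) RNA they were 3.52% to 4% and 5.86% to 6.88%, and in nascent RNA 4.15% to 9.87% and 4.06% to 9.06%. Where no value above shows it, the cause was not tested. With the replicate block in nascent RNA 82 genes were raised and 102 lowered (4.94% and 6.14%, against 3.23% and 3.21% of all genes). Of the samples there, 0 correlated best with the sample of their own number. With 5 samples per group this can happen by chance, so it does not decide whether the replicate numbers pair the samples. A filter of log2 values of at least 5, chosen after seeing the data, gave 161 raised and 200 lowered in poly(A) RNA (11% and 13.7%, against 6.55% and 10.3% of all genes) and 174 and 206 in nascent RNA (12.1% and 14.4%, against 12.4% and 11.2%). For single windows and genes, 1227 of the alternative values kept direction and call, 74 lost the call, 11 gained it and 59 moved. Depth limits windows of few tags, such as the Cre-negative level of Cyp2j11.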
